A study of Mus musculus with 12 samples.

Results

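The comparison is between the CD8-selected T cell fraction and the sorted melanoma fraction of ovalbumin-expressing B16-F10 tumors in mice given antigen-specific T cells. They are the 3 libraries of T cells and the 3 libraries of melanoma cells that carry the OVA label, chosen by their titles, and make up 6 of the 12 libraries of the series. The T fraction, OVA, held OT-1 CD8+ T cells of C57BL/6J-OT-I origin, which carry a transgenic receptor for an ovalbumin peptide, had been activated with anti-CD3/CD28 beads, and were recovered from tumors dissociated with collagenase and hyaluronidase by positive selection on CD8 antibody beads 2 days after T cell transfer. The melanoma fraction, OVA, held B16-F10 cells that carried 2 lentiviral constructs, ovalbumin and the calcium sensor GCaMP6s, each under the EF1A promoter, and were recovered from such tumors by FACS for GCaMP6s. Both fractions came from NOD-SCID hosts that had received the T cells, so neither is an untreated control. NOD-SCID mice lack their own T and B cells but keep macrophages, neutrophils and dendritic cells. The other 6 libraries, the same fractions from tumors without ovalbumin, enter only where the contrast is set against theirs. The labels give neither the age of the mice nor how many mice stand behind each group of 3 libraries.

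B16-F10 is a pigmented mouse melanoma line. A CD8 T cell that meets its antigen releases interferon gamma and kills its target through perforin, which opens the way for granzymes. Interferon gamma acts through its receptor and transcription factors such as IRF1 and turns on guanylate-binding proteins, chemokines that draw T cells, PD-L1 and the machinery of MHC class I presentation in most cell types it reaches. Pigment cells are set apart by melanosome proteins and pigment enzymes, most of them under the transcription factor MITF.

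Library totals ran from 17203672 to 24267494 counts in the T fraction and from 18754546 to 33263730 in the melanoma fraction. Levels are CPM, each count scaled to the total of its library, not adjusted for gene length and given as mean ± SD of 3 libraries where libraries are not listed singly, and fold changes are log2 of T over melanoma fraction from edgeR's quasi-likelihood test with its Benjamini-Hochberg adjusted p. Counts of same-group libraries were close to sampling noise, with a chi-square per degree of freedom between 1.51 and 1.64 for the pairs within these 2 groups. The p-values therefore measure library-to-library spread alone, and that spread may be technical. With so little spread most genes passed: of 17947 genes tested, 6847 (38.2%) were higher and 7375 (41.1%) lower in the T fraction, or 79.2% in all, and the libraries of the 2 fractions did not overlap for 80.3%. A lack of overlap, where stated below, is therefore no special trait of a gene. In edgeR's test against a 2-fold difference, meant below by beyond 2-fold, 1981 genes (11.0%) were higher and 2268 (12.6%) lower, 23.7% in all. The median log2 fold change over all genes was -0.03, and -0.15 when libraries were scaled by their totals alone.

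Neither fraction was pure. Cd8a, a chain of the coreceptor that binds MHC class I, had 129, 133 and 128 CPM in the T fraction, against 13.6, 13.5 and 15.3 CPM in the melanoma fraction (log2 fold change 3.32, SE 0.04, adjusted p = 2.60e-27). Pmel, a structural protein of the melanosome, had 21.2, 18.6 and 20.99 CPM in the T fraction, against 1916, 1941 and 1918 CPM in the melanoma fraction (log2 fold change -6.43, SE 0.023, adjusted p = 1.62e-37). Each marker was higher in the fraction named for it, with no overlap, and present in the other. Ptprc, which encodes the leukocyte surface protein CD45, had 295, 295 and 304 CPM in the T fraction, against 148, 147 and 143 CPM in the melanoma fraction. In melanoma cells sorted in the same way from tumors without ovalbumin Ptprc stood at 0.399 ± 0.0680 CPM and Cd3e, a chain of the T cell receptor complex, had 0 counts, so the OVA melanoma libraries carried RNA of other cells that a sort for GCaMP6s would remove. Endothelial markers summed to 13667 ± 37.4 CPM in the T fraction and 5786 ± 45.7 CPM in the melanoma fraction, although selection on CD8 would not retain endothelial cells. In bulk RNA, fewer cells of a type and less RNA per cell cannot be told apart.

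**Figure D1:**
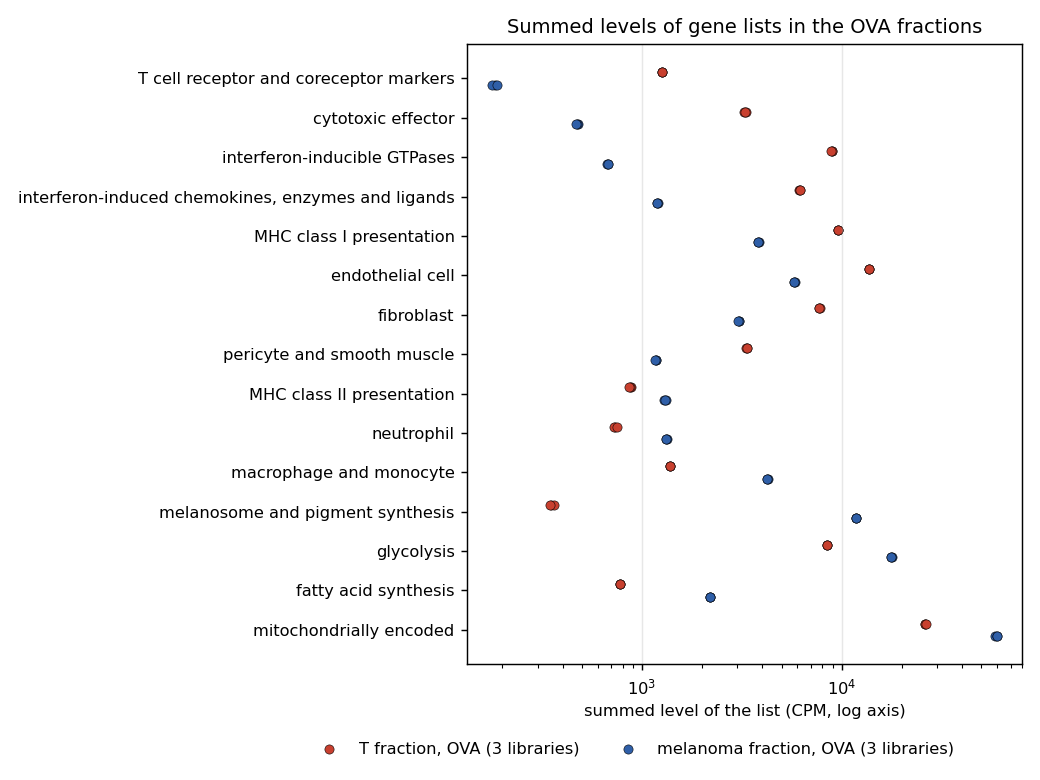
Summed level of 15 gene lists in each of the 6 libraries, in CPM on a log axis, with the T fraction above the melanoma fraction in each line. Libraries of a fraction almost coincide, the T fraction was higher for the T cell, interferon and stromal lists, and the melanoma fraction for the myeloid, pigment and metabolic lists.

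T cell genes were several times as abundant in the T fraction. All 20 genes of the T cell receptor, its coreceptors and its signalling were higher, each beyond 2-fold (median log2 fold change 3.01, against -0.03 over all genes). Their sum was 1260.3 ± 5.204 CPM in the T fraction and 183 ± 5.16 CPM in the melanoma fraction. Cd3e had 72.2, 74.1 and 78.97 CPM in the T fraction, against 9.35, 9.54 and 10.8 CPM in the melanoma fraction (log2 fold change 3.05, SE 0.053, adjusted p = 3.30e-24). The largest difference was that of Cd8b1, the second CD8 chain (log2 fold change 3.78), and the smallest that of Ubash3a, a phosphatase-like regulator of receptor signalling (log2 fold change 1.86). The member of highest CPM, the receptor constant region Trbc2, had 191, 189 and 190.4 CPM in the T fraction, against 36.7, 37 and 37.1 CPM in the melanoma fraction and a log2 fold change of 2.49. The size of this difference, 6.88-fold for the sum, is the yardstick for the other T cell genes below.

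Genes of the killing machinery were higher throughout, several of them by far more than the T cell markers. All 20 cytotoxic effector genes were higher in the T fraction, 18 of them beyond 2-fold, with a median of 3.50. Their sum was 3268 ± 28.4 CPM in the T fraction and 472 ± 3.55 CPM in the melanoma fraction, a 6.92-fold difference, about that of the T cell markers. Srgn alone, taken up below, made up 354 CPM of that melanoma sum and 524 CPM of the T sum. This 1 gene therefore weighs heavily on the ratio of the sums. Gzmb, the granzyme that starts apoptosis in the target, had 1646, 1613 and 1612 CPM in the T fraction, against 22.01, 20.9 and 20.3 CPM in the melanoma fraction (log2 fold change 6.39, SE 0.022, adjusted p = 1.56e-37). Prf1, perforin, had 87.4, 83.99 and 89.1 CPM in the T fraction, against 1.02, 0.906 and 0.845 CPM in the melanoma fraction (log2 fold change 6.65, SE 0.072, adjusted p = 2.95e-28). No library of one fraction came near the other for either gene. Gzmf and Gzmd, granzymes of mouse killer cells, had log2 fold changes of 7.13 and 6.55. Gzma, another granzyme, had 209, 204 and 208 CPM in the T fraction, against 6.07, 7.04 and 7.16 CPM in the melanoma fraction (log2 fold change 5.08, SE 0.04, adjusted p = 5.49e-31). The smallest difference was that of Srgn, the proteoglycan that packs granzymes into granules and that myeloid cells also make, with 524 ± 1.42 CPM in the T fraction and 354 ± 4.07 CPM in the melanoma fraction (log2 fold change 0.69). Granzyme genes lie in clusters of near copies, so reads may be split unevenly among Gzmc, Gzmd, Gzme, Gzmf and Gzmg.

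Interferon gamma itself gave the largest increase among genes of at least 20 CPM. Ifng had 317, 322 and 307 CPM in the T fraction, against 1.202, 1.44 and 1.37 CPM in the melanoma fraction (log2 fold change 8.02, SE 0.048, adjusted p = 3.23e-33), a 236-fold difference in mean CPM. Of 16 cytokine and chemokine genes 15 passed the filter on low counts, and 12 of them were higher and 3 lower (median 3.000, also with Il2 at the bound given next). Il2, the T cell growth factor, had 64 counts over the T fraction and 0 over the melanoma fraction, so it was at least 25.2-fold higher where 3 counts for the whole group are taken as the floor. Tnfsf11, the cytokine RANKL, had 27.9, 26.04 and 27.9 CPM in the T fraction, against 1.92, 1.87 and 2.25 CPM in the melanoma fraction (log2 fold change 3.88). Ccl5, a chemokine of effector T cells, had 101, 106 and 101 CPM in the T fraction, against 13.9, 13.7 and 14.2 CPM in the melanoma fraction (log2 fold change 3.00). Both were well apart between the fractions.

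The cytokines that macrophages also make did not follow. Tnf had 34.1, 35.3 and 37.1 CPM in the T fraction, against 48.3, 48.4 and 48.8 CPM in the melanoma fraction (log2 fold change -0.32, SE 0.04, adjusted p = 9.03e-08). Ccl3, a macrophage inflammatory protein, had 188, 195 and 195 CPM in the T fraction, against 219, 231 and 216 CPM in the melanoma fraction (log2 fold change -0.08, SE 0.022, adjusted p = 0.0026). Il10, a cytokine that restrains inflammation, had 4.94, 5.75 and 4.495 CPM in the T fraction, against 16.8, 16.9 and 14.2 CPM in the melanoma fraction (log2 fold change -1.55, SE 0.098, adjusted p = 5.57e-13). These 3 were lower in the T fraction in every library, while Ccl4, the partner of Ccl3, was slightly higher, with 97.6 ± 1.43 CPM in the T fraction and 82.1 ± 1.73 CPM in the melanoma fraction (log2 fold change 0.37). Macrophage and monocyte markers moved with them: 24 of 26 were lower in the T fraction, none was at 0 in either, and their sum ranged from 1375 to 1376 CPM in the T fraction and from 4226 to 4255 CPM in the melanoma fraction. Their part in these levels was not tested.

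**Figure D2:**
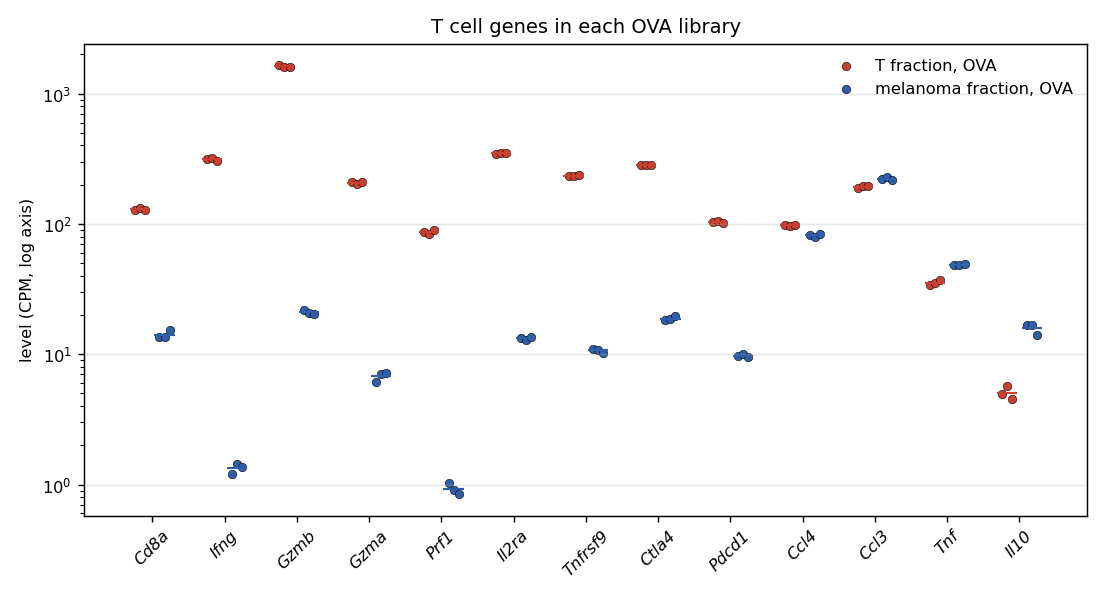
Level of 13 T cell genes in each OVA library, in CPM on a log axis, T fraction left and melanoma fraction right in each pair, with a line at the mean of 3 libraries. Ifng and Prf1 lie near 1 CPM in the melanoma fraction and at 315 and 86.8 CPM in the T fraction, whereas Ccl3, Tnf and Il10 lie higher in the melanoma fraction.

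Receptors of activated T cells were higher with few exceptions. All 11 costimulatory receptors rose in the T fraction (median 3.13, 9 beyond 2-fold), as did 9 of 10 inhibitory receptors, with 1 lower (median 3.01, 6 beyond 2-fold). Il2ra, the high-affinity interleukin 2 receptor chain, had 343, 348 and 351 CPM in the T fraction, against 13.3, 12.96 and 13.6 CPM in the melanoma fraction (log2 fold change 4.83, SE 0.028, adjusted p = 1.67e-33). Tnfrsf9, the activation receptor 4-1BB, had 233, 232 and 238 CPM in the T fraction, against 11.1, 10.8 and 10.3 CPM in the melanoma fraction (log2 fold change 4.57, SE 0.033, adjusted p = 1.17e-31). Both are induced on T cells by antigen receptor signalling. Of the inhibitory receptors, Ctla4 had 282, 283 and 281 CPM in the T fraction, against 18.3, 18.5 and 19.5 CPM in the melanoma fraction (log2 fold change 4.04, SE 0.027, adjusted p = 3.21e-32). Pdcd1, which encodes PD-1, had 104, 106 and 102 CPM in the T fraction, against 9.74, 9.97 and 9.54 CPM in the melanoma fraction (log2 fold change 3.54, SE 0.043, adjusted p = 2.24e-27). None of these 4 overlapped between the fractions, as held for 80.3% of all genes. Lag3, Havcr2 (TIM-3) and Tigit, further inhibitory receptors, had log2 fold changes of 3.27, 2.76 and 3.92. The exception was Cd200r1, a receptor that myeloid cells carry, at 1.02 ± 0.365 CPM in the T fraction and 4.398 ± 0.432 CPM in the melanoma fraction (log2 fold change -1.95). Tnfrsf1b, a TNF receptor, differed least, with 259.9 ± 3.33 CPM in the T fraction and 239 ± 6.47 CPM in the melanoma fraction (log2 fold change 0.25).

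Transcription factors and homing receptors were less far apart. Of 16 fate factors 15 passed the filter, 13 of them higher and 2 lower, the median being 1.66. Irf4, which scales with receptor signalling, had 125, 121 and 126 CPM in the T fraction, against 13.8, 14.3 and 13.8 CPM in the melanoma fraction (log2 fold change 3.28, SE 0.038, adjusted p = 9.22e-28). Tbx21, the effector factor T-bet, had 12.6, 14.1 and 12.04 CPM in the T fraction, against 1.86, 1.71 and 0.966 CPM in the melanoma fraction (log2 fold change 3.19). Prdm1, which encodes Blimp-1, had 368, 366 and 372 CPM in the T fraction, against 106, 106 and 107 CPM in the melanoma fraction (log2 fold change 1.92). All 3 were clearly higher in the T fraction. Tcf7, the factor of naive and stem-like T cells, had 15, 16.1 and 14.6 CPM in the T fraction, against 15.4, 13.3 and 13.5 CPM in the melanoma fraction and overlapped between the fractions although the test called it higher (log2 fold change 0.22, SE 0.071, adjusted p = 0.0068). Zeb2, expressed by effector T cells, macrophages and melanoma cells alike, was lower, with 86.1 ± 0.814 CPM in the T fraction and 151 ± 1.81 CPM in the melanoma fraction (log2 fold change -0.69).

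Of 15 homing receptors 11 were higher, 2 lower and 2 not called (median 0.65). Cxcr6, a receptor of tissue-resident T cells, had 73.4, 72.2 and 65.4 CPM in the T fraction, against 7.005, 7.25 and 6.56 CPM in the melanoma fraction (log2 fold change 3.47). Cd44, a hyaluronan receptor of activated T cells that melanoma cells also carry, was lower (log2 fold change -0.52), and Itga4, an integrin chain, was the lowest member (log2 fold change -1.28). S1pr1, a sphingosine phosphate receptor that endothelial cells express strongly as well, was the member of highest CPM, with 595 ± 5.67 CPM in the T fraction and 256 ± 3.05 CPM in the melanoma fraction (log2 fold change 1.34).

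Set against the T cell markers of the same library, several effector genes differed beyond the T cell content. Per 100 CPM of summed T cell markers, Ifng stood at 25 ± 0.673 in the T fraction and 0.730 ± 0.0765 in the melanoma fraction, a 34.2-fold difference. Gzmb stood at 129 ± 1.196 in the T fraction and 11.5 ± 0.638 in the melanoma fraction on the same scale, and Prf1 at 6.89 ± 0.185 in the T fraction and 0.505 ± 0.0545 in the melanoma fraction. Il2ra stood at 27.6 ± 0.361 in the T fraction and 7.25 ± 0.0299 in the melanoma fraction, and Pdcd1 at 8.23 ± 0.205 in the T fraction and 5.32 ± 0.269 in the melanoma fraction. So these 2 receptors exceeded the marker yardstick by less than Ifng did, by 3.80-fold for Il2ra and 1.55-fold for Pdcd1. Among the markers themselves this ratio ran from 0.48 (Ubash3a) to 1.84 (Cd8b1), a range that holds the value of Pdcd1. Havcr2, at 0.90, and Tnfrsf4, at 0.71, were receptors below the yardstick. Cd8a itself stood at 10.3 ± 0.244 in the T fraction and 7.71 ± 0.375 in the melanoma fraction. On this scale 14 of 20 effector genes were higher and 6 lower in the T fraction, as were 7 and 4 of 11 costimulatory and 5 and 5 of 10 inhibitory receptors, while 12 of 15 fate factors and 14 of 15 homing receptors were lower. The 20 markers that make up the scale split into 11 higher and 9 lower themselves. The effector and receptor counts are therefore not far from the split of the scale's own members. Tcf7 stood at 1.21 ± 0.0651 in the T fraction and 7.67 ± 0.631 in the melanoma fraction, and Tnf at 2.82 ± 0.124 in the T fraction and 26.5 ± 0.644 in the melanoma fraction. Cells other than T cells express several of these genes, and their part was not tested. The smallest p that an exact two-sided permutation test of 3 against 3 can give is 0.1, which each of the ratios named here reached.

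The T fraction from tumors without ovalbumin gave a further value for each ratio. Its T cell markers summed to 1337 ± 8.36 CPM, close to the 1260.3 ± 5.20 CPM of the OVA T fraction. Per 100 CPM of markers it held 0.956 CPM of Ifng, 9.696 of Gzmb, 0.314 of Prf1 and 6.07 of Il2ra. These values lie near those of the OVA melanoma fraction and far below those of the OVA T fraction. Tnf, at 1.203, did not follow this order, because it was highest in the OVA melanoma fraction, at 26.5 against 2.82 in the OVA T fraction.

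**Figure D3:**
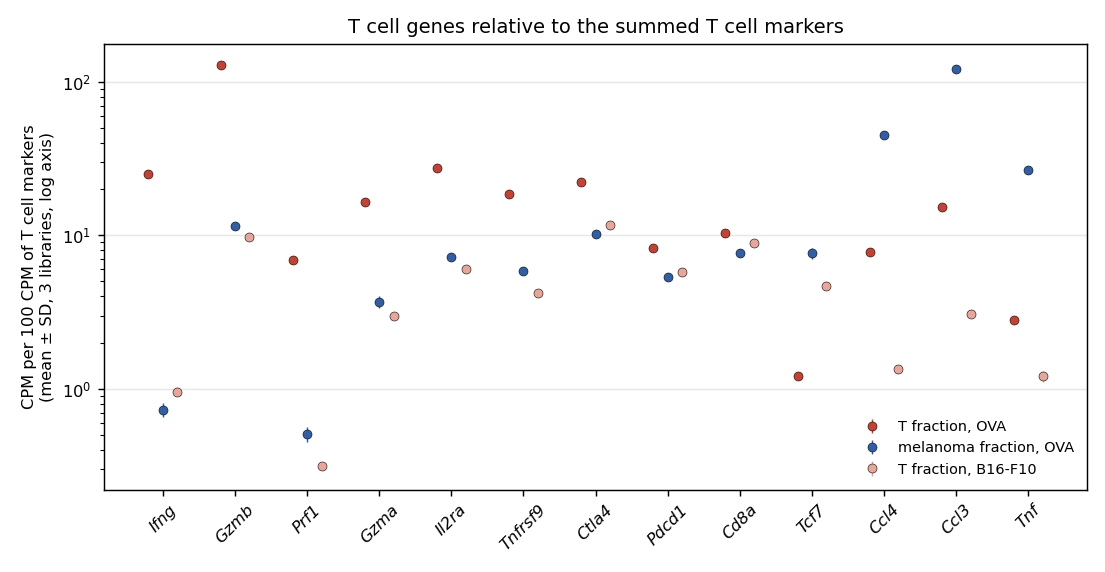
CPM of 13 genes per 100 CPM of summed T cell markers in the same library, mean ± SD of 3 libraries on a log axis, for the OVA T fraction, the OVA melanoma fraction and the B16-F10 T fraction. Ifng, Gzmb, Prf1 and Gzma are highest in the OVA T fraction, and Tcf7, Ccl4, Ccl3 and Tnf in the OVA melanoma fraction.

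The interferon gamma pathway was higher at each level. All 12 genes of interferon gamma signalling were higher in the T fraction, 10 beyond 2-fold (median 1.49). Ifngr1, the ligand-binding receptor chain, had 188, 184 and 184 CPM in the T fraction, against 71.8, 73.2 and 72.7 CPM in the melanoma fraction (log2 fold change 1.48). Irf1, a transcription factor that interferon gamma induces early, had 1443, 1435 and 1420.2 CPM in the T fraction, against 174, 172 and 169.8 CPM in the melanoma fraction (log2 fold change 3.18, SE 0.015, adjusted p = 3.75e-35). Both separated the fractions without overlap, as did 80.3% of all genes. Socs1, the feedback inhibitor, had a log2 fold change of 2.73, and Irf8, a factor shared with myeloid cells, of 2.32. Ptpn2, a phosphatase that turns the pathway off, differed least (log2 fold change 0.30).

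Interferon-inducible GTPases, which attack the vacuoles of intracellular microbes, moved together. All 19 were higher, all beyond 2-fold (11.0% of all genes were), with log2 fold changes from 2.30 (Gvin1) to 4.76 (Gbp5) and a median of 3.59. Gbp2, the member of highest CPM, had 1973, 1949.9 and 1962 CPM in the T fraction, against 87.5, 87.1 and 87.99 CPM in the melanoma fraction (log2 fold change 4.61, SE 0.015, adjusted p = 1.15e-37). Gbp5, which promotes inflammasome assembly, had 484, 485 and 488 CPM in the T fraction, against 18.5, 20.7 and 19.95 CPM in the melanoma fraction (log2 fold change 4.76, SE 0.025, adjusted p = 3.61e-34). In both every T library lay more than 20-fold above every melanoma library. Igtp (Irgm3) had 441, 436 and 433 CPM in the T fraction, against 39.3, 38.7 and 40.6 CPM in the melanoma fraction (log2 fold change 3.59, SE 0.022, adjusted p = 5.12e-33). Irgm1, another immunity-related GTPase, had 705, 714 and 689 CPM in the T fraction, against 73.5, 67.6 and 73.1 CPM in the melanoma fraction (log2 fold change 3.41, SE 0.023, adjusted p = 2.34e-32). In all 4 the lowest T library lay more than 9 times above the highest melanoma library. Tgtp1 and Tgtp2 are near-identical copies whose reads cannot be assigned safely, and they gave almost the same values (log2 fold changes 3.89 and 3.86). The list summed to 8902 ± 54.4 CPM in the T fraction and 673 ± 2.94 CPM in the melanoma fraction, a 13.2-fold difference, against 6.88-fold for T cell markers and 2.36-fold for endothelial markers. Which of these cells held the RNA was not tested.

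The promoters of this family carry the letters that interferon-activated factors are known to bind, and a few are printed to show them. The sequences are RefSeq's, on build GRCm38.p6, which is not the build of the counts. Of the 19 genes 11 were in that table, with 12 windows of 250 bases before a start. On both strands, GAAANNGAA, the core of the element bound by interferon-activated IRF complexes, was found in 10 of 12 windows (83.3%) and in 7.13% of all 32851 windows. TTCNNNGAA, the core of the interferon gamma activation site, was found in 6 of 12 (50%) and in 7.02% of all windows. Matches of the 2 motifs overlap in none of the 12 windows, and matches of GAAANNGAA overlap each other in Gbp3 and Irgm1. In Igtp, Irgm2, Tgtp1 and Tgtp2 a TTCNNNGAA match stood directly before a GAAANNGAA match with 2 bases between them, while the Gbp2 window held only GAAANNGAA, on the opposite strand. The stretches below run 5′ to 3′ on the strand of the gene, capitals mark both kinds of match, and the positions are chr11:58199471-58199555, plus strand for Igtp, chr11:58214862-58214961, plus strand for Irgm2, chr11:48992275-48992374, minus strand for Tgtp1, chr11:49064234-49064333, minus strand for Tgtp2 and chr3:142620565-142620653, plus strand for Gbp2. A match describes the letters and shows no binding.
Igtp: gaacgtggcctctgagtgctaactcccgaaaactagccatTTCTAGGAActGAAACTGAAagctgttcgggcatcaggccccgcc
Irgm2: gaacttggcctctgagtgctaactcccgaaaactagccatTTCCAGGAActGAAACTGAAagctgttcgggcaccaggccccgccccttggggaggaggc
Tgtp1: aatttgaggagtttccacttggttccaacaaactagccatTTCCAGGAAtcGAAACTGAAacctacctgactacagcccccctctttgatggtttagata
Tgtp2: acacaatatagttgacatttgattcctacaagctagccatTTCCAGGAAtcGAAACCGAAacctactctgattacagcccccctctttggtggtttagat
Gbp2: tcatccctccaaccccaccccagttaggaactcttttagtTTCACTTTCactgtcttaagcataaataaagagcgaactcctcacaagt

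The GTPases did not separate the fractions in this way without ovalbumin. Their sum was 1741 ± 2.802 CPM in the B16-F10 T fraction and 2041 ± 22.5 CPM in the B16-F10 melanoma fraction. Igtp stood at 96.3 CPM in the B16-F10 T fraction and 296 CPM in the B16-F10 melanoma fraction, and Irgm1 at 136 CPM in the B16-F10 T fraction and 398 CPM in the B16-F10 melanoma fraction. The difference between the OVA and the B16-F10 contrast, fitted over all 12 libraries, was higher for 16 and lower for 2 of the 19 (median 3.68). Over all 18562 genes tested that difference was higher for 27.7% and lower for 41.3%, or 69.0% in all, with a median of -0.16. For Igtp it was 4.96, SE 0.033, adjusted p = 6.97e-35, and for Gbp2 4.86, SE 0.025, adjusted p = 6.48e-37, on the log2 scale.

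**Figure D4:**
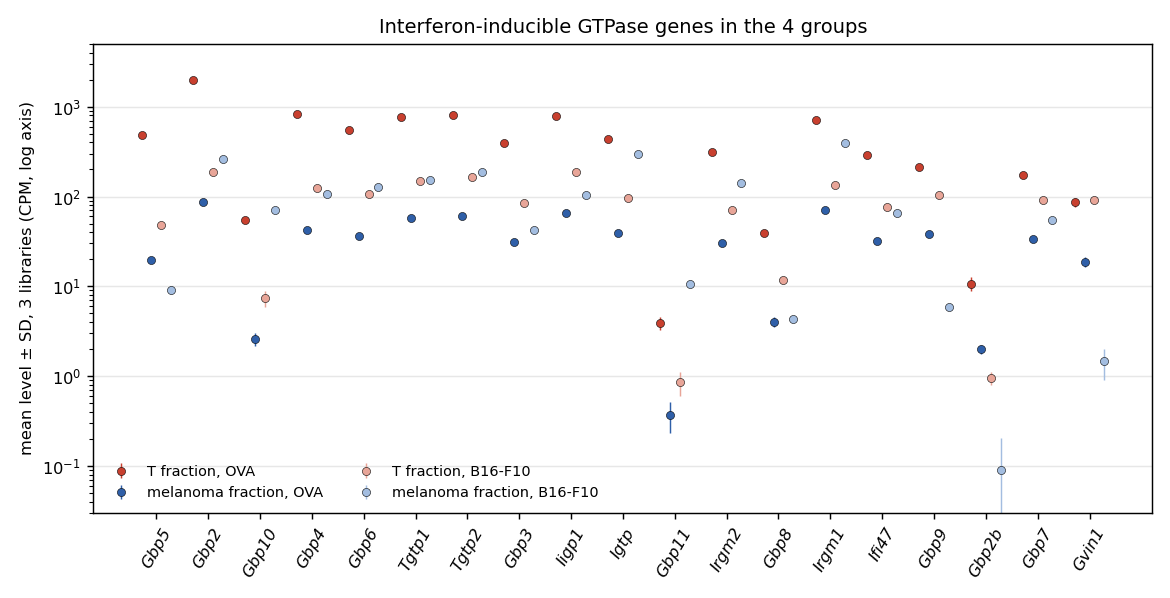
Mean level ± SD of 19 interferon-inducible GTPase genes in the 4 groups of 3 libraries, in CPM on a log axis, ordered by the OVA fold change. The OVA T fraction lies above the OVA melanoma fraction for all 19, while under the B16-F10 label 9 genes, among them Gbp2, Igtp and Irgm1, lie higher in the melanoma fraction (the lower error bar of Gbp2b in the B16-F10 melanoma fraction runs off the axis).

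Interferon-induced chemokines and ligands followed. Of 12 genes measured 11 were higher and 1 lower (median 1.82). Cxcl9, a chemokine that attracts T cells through CXCR3, had 1484, 1483 and 1513 CPM in the T fraction, against 45.8, 45.8 and 46.4 CPM in the melanoma fraction (log2 fold change 5.15, SE 0.018, adjusted p = 1.62e-37). Cxcl10, its close relative, had 1610.3, 1628 and 1622 CPM in the T fraction, against 98.2, 92.03 and 93.1 CPM in the melanoma fraction (log2 fold change 4.22, SE 0.019, adjusted p = 8.80e-36). Cd274, which encodes PD-L1, had 773, 779.9 and 781 CPM in the T fraction, against 136, 138 and 136 CPM in the melanoma fraction (log2 fold change 2.64, SE 0.015, adjusted p = 1.95e-33). All 3 were far higher in every T library, and Ido1, which degrades tryptophan, was higher at a low level, with 4.87 ± 0.562 CPM in the T fraction and 0.0915 ± 0.0603 CPM in the melanoma fraction (log2 fold change 5.77). Icam1, the adhesion molecule that T cells grip, had 1316, 1306 and 1309.5 CPM in the T fraction, against 332, 333 and 335 CPM in the melanoma fraction (log2 fold change 2.10). Acod1, an enzyme of activated macrophages that makes itaconate, was the lower one, with 219 ± 1.88 CPM in the T fraction and 263 ± 3.51 CPM in the melanoma fraction (log2 fold change -0.14).

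Genes better known from the type I interferon response moved less. Of 29 measured, 25 were higher, 18 of them beyond 2-fold, and 4 lower (median 1.22). Parp14, an ADP-ribosyltransferase, led with 661, 661 and 668 CPM in the T fraction, against 107, 111 and 111 CPM in the melanoma fraction (log2 fold change 2.73, SE 0.017, adjusted p = 6.94e-33). Isg15, a ubiquitin-like modifier, had 99.7, 96.3 and 94.3 CPM in the T fraction, against 46.7, 41.2 and 43.9 CPM in the melanoma fraction (log2 fold change 1.25). The cytosolic RNA sensor Rigi had 114, 114 and 117 CPM in the T fraction, against 54.1, 51.5 and 53.2 CPM in the melanoma fraction (log2 fold change 1.24). These roughly 2-fold differences are far smaller than those of the GTPases. The 4 lower genes were the antiviral synthetase genes Oas2, Oas3 and Oasl1 and the interferon-induced Ifi27, with log2 fold changes from -0.27 (Oas3) to -0.16 (Oasl1). Bst2, tetherin, had 233 ± 4.56 CPM in the T fraction and 117 ± 3.05 CPM in the melanoma fraction (log2 fold change 1.12).

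Genes of MHC class I presentation were higher throughout, while those of class II were mixed. All 20 class I genes were higher in the T fraction, 18 beyond 2-fold (median 1.54). Their sum was 9571 ± 11.2 CPM in the T fraction and 3827 ± 12.0 CPM in the melanoma fraction. That is a 2.50-fold difference, near the 2.36-fold of endothelial markers. Unlike the GTPases, class I genes separated the fractions without ovalbumin too, at 7736 ± 23.6 CPM in the B16-F10 T fraction and 1041.5 ± 7.66 CPM in the B16-F10 melanoma fraction. H2-K1, a class I heavy chain, had 1351, 1342 and 1345 CPM in the T fraction, against 552, 538 and 537 CPM in the melanoma fraction (log2 fold change 1.44, SE 0.014, adjusted p = 2.36e-29). The light chain B2m had 1749, 1756 and 1761 CPM in the T fraction, against 781, 770.0 and 785 CPM in the melanoma fraction (log2 fold change 1.30). Tap1, the peptide transporter, had 551, 559 and 555 CPM in the T fraction, against 103, 114 and 107 CPM in the melanoma fraction (log2 fold change 2.49, SE 0.021, adjusted p = 1.80e-30). Tap1 was the furthest apart of the list, ahead of Nlrc5, the class I transactivator (log2 fold change 2.10). H2-Q6 and H2-Q7 are near copies, and their values (log2 fold changes 1.57 and 1.64) may share reads.

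Of 11 class II genes 3 were higher and 6 lower (median -0.14). Over all genes 38.2% were higher and 41.1% lower (median -0.03), so the class II list as a whole was not far from that. Cd74, the invariant chain, had 321, 317 and 310.2 CPM in the T fraction, against 463, 446 and 451 CPM in the melanoma fraction (log2 fold change -0.40, SE 0.018, adjusted p = 7.02e-16). Ctss, the protease that trims it, had 45.2, 47.3 and 47.7 CPM in the T fraction, against 185, 178 and 185 CPM in the melanoma fraction (log2 fold change -1.84, SE 0.029, adjusted p = 3.50e-25). Both were higher in the melanoma fraction in every library. Ciita, the class II transactivator, was higher in the T fraction at a low level, with 11.5, 11.5 and 11.6 CPM in the T fraction, against 5.44, 5.76 and 5.67 CPM in the melanoma fraction (log2 fold change 1.17). Markers of macrophages, which present on class II, moved with the lower members, and their part was not tested.

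Myeloid genes were mostly higher in the melanoma fraction. Of 26 macrophage and monocyte markers 24 were lower in the T fraction, 20 beyond 2-fold (12.6% of all genes were), and 2 higher (median -2.04). The list summed to 1376 ± 0.598 CPM in the T fraction and 4239 ± 14.6 CPM in the melanoma fraction. C1qa, a subunit of complement C1q made by tissue macrophages, had 20.5, 18.8 and 21.7 CPM in the T fraction, against 228, 227 and 227 CPM in the melanoma fraction (log2 fold change -3.35, SE 0.032, adjusted p = 2.52e-29). Lyz2, lysozyme, had 73.7, 79.6 and 78.2 CPM in the T fraction, against 569, 555 and 569 CPM in the melanoma fraction (log2 fold change -2.75, SE 0.022, adjusted p = 1.07e-30). Csf1r, the receptor for macrophage growth factor, had 19.9, 17.4 and 19 CPM in the T fraction, against 119.8, 121 and 129 CPM in the melanoma fraction (log2 fold change -2.58, SE 0.043, adjusted p = 1.47e-24). No library overlapped for any of these 3, as for 80.3% of all genes. Apoe, a lipid carrier that melanoma cells also express, had 46.9 ± 1.06 CPM in the T fraction and 374 ± 1.28 CPM in the melanoma fraction (log2 fold change -2.87), and stood at 518 CPM in the B16-F10 melanoma fraction, where C1qa stood at 0.209 CPM.

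The 2 exceptions mark blood monocytes. Ly6c2 had 58.7, 60.4 and 58.1 CPM in the T fraction, against 23.8, 24.05 and 24.9 CPM in the melanoma fraction (log2 fold change 1.41, SE 0.04, adjusted p = 5.28e-20). Ccr2, the receptor that brings monocytes into tissue, had 44.5, 43.2 and 43.05 CPM in the T fraction, against 22.2, 25.2 and 22.9 CPM in the melanoma fraction (log2 fold change 1.04, SE 0.046, adjusted p = 5.68e-16). Both were higher in each T library. Ly6c2 is also carried by activated CD8 T cells and Ccr2 by some of them. Ms4a7 and Trem2, genes of resident and lipid-laden macrophages, were the 2 lowest members (log2 fold changes -3.39 and -3.35).

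Of 16 neutrophil genes 13 passed the filter, 11 lower and 1 higher (median -1.06). S100a8, a calprotectin chain, had 11.7, 9.53 and 10.9 CPM in the T fraction, against 42.7, 38.7 and 40.4 CPM in the melanoma fraction (log2 fold change -1.79, SE 0.063, adjusted p = 4.16e-18). Csf3r, the receptor for the neutrophil growth factor, had 21.02, 20.7 and 21.4 CPM in the T fraction, against 75.5, 78.6 and 78.7 CPM in the melanoma fraction (log2 fold change -1.75, SE 0.039, adjusted p = 6.01e-22). Cxcl2 and Il1b, inflammatory genes shared with macrophages, were lower by less (log2 fold changes -0.48 and -0.55). Ly6g, the defining mouse neutrophil antigen, stood near 1 CPM in both, with 1.195, 0.756 and 1.27 CPM in the T fraction, against 0.661, 0.533 and 0.764 CPM in the melanoma fraction, and was called higher (log2 fold change 0.85, adjusted p = 0.010 by edgeR).

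Dendritic cell genes split, as did genes at large, of which 38.2% were higher and 41.1% lower. Of 14, 13 passed the filter, 7 higher and 4 lower (median 0.18). Batf3, a factor of cross-presenting dendritic cells that T cells also express, had 9.48, 8.196 and 7.89 CPM in the T fraction, against 2.56, 3.09 and 2.78 CPM in the melanoma fraction (log2 fold change 1.75). The chemokine Ccl22 was the lowest, with 5.48, 4.53 and 6.11 CPM in the T fraction, against 24.2, 28.6 and 25.9 CPM in the melanoma fraction (log2 fold change -2.13). Flt3 and Siglech, which mark dendritic cell subsets, differed by less than 1.4-fold (log2 fold changes 0.42 and 0.18). Fscn1, the member of highest CPM, is an actin bundler found in other cells too, and had 420.3 ± 2.79 CPM in the T fraction and 230.2 ± 2.38 CPM in the melanoma fraction.

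Genes of other lymphocytes summed to lower levels than the T cell markers. B cell genes summed to 44.5 CPM in the T fraction and 42.8 CPM in the melanoma fraction. The sums were 51.4 and 59.6 CPM for CD4 and regulatory T cell genes and 5.63 and 6.90 CPM for NK cell genes. Of 10 NK cell genes 3 passed the filter. The receptor Klri2 was higher in the T fraction, with 3.63, 3.78 and 4.58 CPM in the T fraction, against 0.541, 0.533 and 0.563 CPM in the melanoma fraction (log2 fold change 2.99). Klra8 and Klra9, members of a family of near copies, were lower, with 0.400 ± 0.0573 CPM in the T fraction and 3.501 ± 0.171 CPM in the melanoma fraction for Klra8. Of 9 B cell genes 6 passed, 3 higher and 2 lower. Ighm, the immunoglobulin heavy chain, had 41.3, 37.3 and 39.5 CPM in the T fraction, against 30.6, 31.9 and 31.2 CPM in the melanoma fraction (log2 fold change 0.47). Cd22 was lower, with 0.564 ± 0.217 CPM in the T fraction and 7.105 ± 0.647 CPM in the melanoma fraction, and Pax5 had 2 counts over the T fraction and 43 over the melanoma fraction, or 18.2 times the T fraction's level (95% counting interval 4.74 to 155). Of 7 CD4 and regulatory T cell genes 6 passed, 4 higher and 2 lower. Cd4 had 11.9 ± 0.333 CPM in the T fraction and 15.5 ± 0.621 CPM in the melanoma fraction (log2 fold change -0.25). Il13, a type 2 cytokine, had 178 counts in the T fraction and 0 in the melanoma fraction, at least 70.1-fold higher against the same floor. Counting intervals and floors cover counting error only.

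Stromal genes were present in both fractions and higher in the T fraction. All 18 endothelial genes were higher (median 1.27), as were all 11 of pericytes and smooth muscle (median 1.51) and 12 of 16 fibroblast genes, with 3 lower (median 1.31). Pecam1, the junction protein CD31, had 1828, 1795 and 1814 CPM in the T fraction, against 664, 658 and 655 CPM in the melanoma fraction (log2 fold change 1.59, SE 0.013, adjusted p = 6.00e-31). Col1a1, a chain of type I collagen, had 1633, 1647 and 1628 CPM in the T fraction, against 660.5, 656 and 661 CPM in the melanoma fraction (log2 fold change 1.44, SE 0.012, adjusted p = 2.25e-30). Neither overlapped between the fractions, nor did 80.3% of all genes. Acta2, smooth muscle actin, had 454, 448 and 454 CPM in the T fraction, against 108, 112 and 104 CPM in the melanoma fraction (log2 fold change 2.19). Rgs5, a pericyte marker, had 1288, 1268 and 1289.5 CPM in the T fraction, against 389.6, 380.0 and 386 CPM in the melanoma fraction (log2 fold change 1.86). The T fraction was higher by a factor of 2 to 5 in every library for these 4. Robo4 was the furthest apart of the endothelial genes (log2 fold change 2.09), and Cldn5, a tight junction gene, the least (log2 fold change 0.22). Dcn, Pdgfra and Dpt were the 3 lower fibroblast genes, all under 16 CPM.

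Globin genes of red cells were higher too, with Hbb-bs, a beta globin, at 37.1 ± 2.72 CPM in the T fraction and 9.95 ± 0.128 CPM in the melanoma fraction (log2 fold change 2.03), and all 5 measured erythroid genes called higher. Of 4 skeletal muscle genes measured 1 was higher and of 3 adipocyte genes 1, all of them low, with list sums under 10 CPM in both fractions. Kit, the stem cell factor receptor, and Ednrb, an endothelin receptor that endothelial cells share with pigment cells, are taken up with the pigment genes.

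Keratin genes of skin were nearly absent from the T fraction. Krt71, a keratin of the hair follicle sheath, had 2 counts over the 3 T libraries, against 20.2, 20.05 and 20.9 CPM in the melanoma fraction, where its level was 663 times as high (95% counting interval 183 to 5479). In the B16-F10 libraries it stood at 1.55 to 2.07 CPM in the T fraction and had 0 counts in the melanoma fraction. Krt5, the keratin of basal skin cells, had 1 count over the T fraction and 602 over the melanoma fraction, and Krt14, its partner, 1 and 184. Of 11 keratinocyte genes 6 passed the filter, 4 lower and 2 not called. Loricrin and Sfn, the 2 not called, had log2 fold changes of 0.61 and 0.01. The differences of Krt71, Krt5, Krt14, Krt15 and Trp63 rest on 1 or 2 counts in the T fraction.

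Pigment genes were far lower in the T fraction. Of 20 melanosome and pigment synthesis genes 19 were lower in the T fraction, 16 beyond 2-fold, with a median of -5.47 on the log2 scale, and their sum was 352 ± 9.28 CPM in the T fraction and 11762 ± 15.7 CPM in the melanoma fraction. Tyr, tyrosinase, the first enzyme of melanin synthesis, had 4.12, 5.64 and 4.62 CPM in the T fraction, against 405, 411 and 391 CPM in the melanoma fraction (log2 fold change -6.29, SE 0.044, adjusted p = 5.11e-32). Tyrp1, a tyrosinase-related enzyme, had 25.3, 27.9 and 24.8 CPM in the T fraction, against 3428, 3403 and 3436 CPM in the melanoma fraction (log2 fold change -6.93, SE 0.021, adjusted p = 4.44e-38). Dct, dopachrome tautomerase, had 35.3, 41.4 and 38.5 CPM in the T fraction, against 2635, 2636 and 2634 CPM in the melanoma fraction (log2 fold change -5.98, SE 0.023, adjusted p = 9.39e-37). The melanoma mean was 83.9 times the T mean for Tyr, 132 times for Tyrp1 and 68.6 times for Dct. Mlana, a melanosome protein and tumor antigen, had 2.39, 2.33 and 2.71 CPM in the T fraction, against 149, 149.9 and 145 CPM in the melanoma fraction (log2 fold change -5.77, SE 0.054, adjusted p = 1.51e-29). The pigment transporter gene Oca2 had 2 counts in the T fraction and 1151 in the melanoma fraction, 487 times the T level (95% counting interval 135 to 4026). Rab38, which traffics pigment enzymes, had 0.618, 0.465 and 0.594 CPM in the T fraction, against 115, 116 and 117 CPM in the melanoma fraction (log2 fold change -7.53). Members that other cells use for transport differed least, Hps4, Rab27a and Atp7a by -0.53, -0.67 and -0.76, and Bloc1s6, a subunit of a vesicle complex, was higher (log2 fold change 0.79).

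Promoters of 4 of these genes are printed because they hold CATGTG, the E-box form that MITF is known to bind, between 13 and 232 bases before the start in the list as a whole. Of the 20 genes 14 were in the RefSeq table, with 17 windows. CATGTG was found on either strand in 6 of 17 windows (35.3%), each of another gene, and in 12.3% of all windows, and CACGTG, the palindromic E-box, in 4 of 17 (23.5%) and in 6.02%. Both are searched on both strands and do not overlap each other in the windows printed. Tyr and Tyrp1 share the longer run agtCATGTGct around the match. Capitals mark matches, on GRCm38.p6 at chr7:87493513-87493573, minus strand for Tyr, chr4:80834127-80834212, plus strand for Tyrp1, chr14:118052351-118052493, minus strand for Dct and chr7:56239533-56239621, plus strand for Oca2.
Tyr: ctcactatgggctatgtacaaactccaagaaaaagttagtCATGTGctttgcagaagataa
Tyrp1: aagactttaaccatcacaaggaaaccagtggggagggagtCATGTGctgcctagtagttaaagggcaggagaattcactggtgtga
Dct: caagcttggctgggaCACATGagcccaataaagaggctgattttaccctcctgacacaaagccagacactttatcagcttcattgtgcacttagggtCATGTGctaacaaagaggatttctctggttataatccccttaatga
Oca2: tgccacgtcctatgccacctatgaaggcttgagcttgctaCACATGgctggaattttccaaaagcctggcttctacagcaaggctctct

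The regulators of the lineage followed, with exceptions. Of 18, 17 passed the filter, 13 lower and 3 higher (median -3.18). Mitf had 6.02, 5.81 and 5.73 CPM in the T fraction, against 517, 524 and 532 CPM in the melanoma fraction (log2 fold change -6.36, SE 0.032, adjusted p = 1.41e-34). Sox10, which drives Mitf, had 2.35, 1.92 and 1.78 CPM in the T fraction, against 246, 243 and 245 CPM in the melanoma fraction (log2 fold change -6.79, SE 0.048, adjusted p = 9.34e-32). Neither reached 7 CPM in a T library. Pax3, its partner, had 0.742, 0.930 and 0.763 CPM in the T fraction, against 135, 136 and 131 CPM in the melanoma fraction (log2 fold change -7.26, SE 0.069, adjusted p = 1.89e-29). Ppargc1a, a coactivator of mitochondrial genes that MITF is known to drive in human melanoma, had 1.57, 1.74 and 1.19 CPM in the T fraction, against 334, 335 and 349 CPM in the melanoma fraction (log2 fold change -7.71, SE 0.052, adjusted p = 3.21e-32). All 4 were nearly confined to the melanoma fraction. The 3 higher in the T fraction were Kit, the Wnt effector Lef1, and Ednrb. Kit had 198, 198 and 183 CPM in the T fraction, against 40.6, 40.4 and 38.7 CPM in the melanoma fraction. Ednrb had 607, 619.9 and 619 CPM in the T fraction, against 311, 315 and 309.9 CPM in the melanoma fraction. In the B16-F10 melanoma fraction Ednrb stood at 0.0979 CPM and Kit at 12.0 CPM.

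The other genes among the 10 lowest are not pigment enzymes. Gsdmc, a pore-forming gasdermin, had 0.288, 0.174 and 0.127 CPM in the T fraction, against 50.2, 49.6 and 47.6 CPM in the melanoma fraction (log2 fold change -7.78, SE 0.12, adjusted p = 3.36e-25). Foxr2, a forkhead factor, had 0.577, 0.988 and 0.721 CPM in the T fraction, against 94.6, 100.1 and 95.5 CPM in the melanoma fraction (log2 fold change -6.89). Fkbp6, of the immunophilin family, had 0.529 ± 0.101 CPM in the T fraction and 65.4 ± 1.47 CPM in the melanoma fraction (log2 fold change -6.83). Brs3, a bombesin-like receptor, had 0.186 ± 0.143 CPM in the T fraction and 23.1 ± 1.44 CPM in the melanoma fraction (log2 fold change -6.91). Dcdc2a, a doublecortin domain gene, had 0.212 ± 0.0403 CPM in the T fraction and 27.6 ± 1.19 CPM in the melanoma fraction (log2 fold change -6.85). Gsdmc, Foxr2, Fkbp6, Brs3 and Dcdc2a also stood between 37.97 and 179.97 CPM in the B16-F10 melanoma fraction. Among the 10 highest, those not yet named were Zbtb32, a zinc finger repressor of activated lymphocytes, with 71.5, 70.7 and 70.1 CPM in the T fraction, against 0.872, 1.12 and 1.17 CPM in the melanoma fraction (log2 fold change 6.22), Klrc1, the inhibitory receptor NKG2A (log2 fold change 5.33), and Serpinb9b, of a family of granzyme inhibitors (log2 fold change 4.98).

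**Figure D5:**
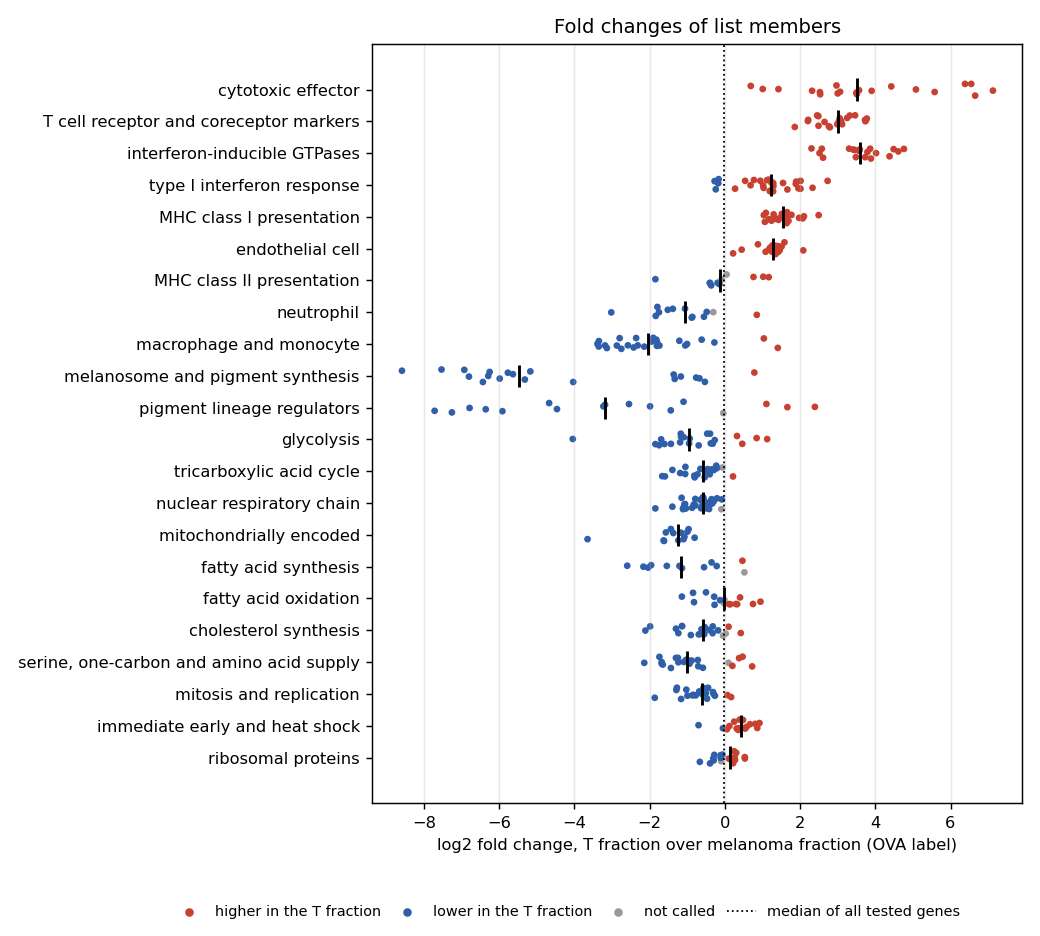
Log2 fold change of T over melanoma fraction for each measured member of 22 lists, coloured by the edgeR call, with the list median as a black bar and the median of all tested genes as a dotted line. Most members of the pigment lists lie far below 0, effector genes and interferon-inducible GTPases lie above 0 throughout, and metabolic lists lie mostly between -2 and 0.

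Metabolic genes were higher in the melanoma fraction, by less than pigment genes. Of 22 glycolysis genes 18 were lower in the T fraction and 4 higher (median -0.94), and the list summed to 8428 ± 18.9 CPM in the T fraction and 17739 ± 52.7 CPM in the melanoma fraction. Gapdh had 1193, 1188 and 1207 CPM in the T fraction, against 3968, 3967 and 3974 CPM in the melanoma fraction (log2 fold change -1.60, SE 0.011, adjusted p = 4.12e-32). Eno1, enolase, had 574, 568 and 581 CPM in the T fraction, against 2272, 2248 and 2244 CPM in the melanoma fraction (log2 fold change -1.85, SE 0.013, adjusted p = 6.09e-32). Both were over 3 times as high in each melanoma library. Ldhb, the heart-type lactate dehydrogenase subunit, stood furthest apart, with 8.28, 7.96 and 8.02 CPM in the T fraction, against 146, 146 and 145 CPM in the melanoma fraction (log2 fold change -4.04, SE 0.041, adjusted p = 6.18e-29), while its partner Ldha had 796, 792 and 789.7 CPM in the T fraction, against 1129.6, 1115 and 1117 CPM in the melanoma fraction (log2 fold change -0.37). The 4 higher genes were the glucose transporters Slc2a3 and Slc2a1, hexokinase Hk1 and the phosphofructokinase Pfkp. Slc2a3, the transporter of activated lymphocytes, had 131, 135 and 133 CPM in the T fraction, against 66.9, 64.5 and 67.8 CPM in the melanoma fraction (log2 fold change 1.13, SE 0.027, adjusted p = 1.97e-21), and was the only one of them beyond 2-fold.

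Of 20 citric acid cycle genes 18 were lower and 1 higher (median -0.59). Idh2, the mitochondrial isocitrate dehydrogenase, had 41.5, 41.04 and 43.3 CPM in the T fraction, against 144, 147 and 145 CPM in the melanoma fraction (log2 fold change -1.66, SE 0.029, adjusted p = 2.65e-24). Of 33 measured nuclear genes of the respiratory chain 32 were lower, 8 beyond 2-fold (median -0.58). Ndufa4, a respiratory chain subunit, had 26.5, 26.7 and 24.5 CPM in the T fraction, against 103, 102 and 99.2 CPM in the melanoma fraction (log2 fold change -1.85, SE 0.038, adjusted p = 8.18e-23). The ATP synthase gene Atp5f1b had 657, 632 and 666 CPM in the T fraction, against 956, 948 and 951 CPM in the melanoma fraction (log2 fold change -0.42). Neither overlapped.

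All 13 protein genes of the mitochondrial genome were lower as well, 10 beyond 2-fold (median -1.24). mt-Co1, a cytochrome oxidase subunit, had 11706, 11790.0 and 11681 CPM in the T fraction, against 24799, 25064 and 24954 CPM in the melanoma fraction (log2 fold change -0.96, SE 0.0084, adjusted p = 4.06e-30). The lowest, mt-Nd3, was counted unevenly, with 0, 0 and 2.84 CPM in the T fraction, against 13.2, 6.45 and 21.7 CPM in the melanoma fraction. Mitochondrial genes took 2.78% ± 0.0145 of counts in the T fraction and 6.50% ± 0.0741 in the melanoma fraction, and the ribosomal RNA gene Rn18s-rs5 0.316% and 1.21%, and what RNA quality or preparation added to these shares was not tested. Here the B16-F10 label ran the other way, with mt-Co1 at 12707 CPM in the B16-F10 T fraction and 5628 CPM in the B16-F10 melanoma fraction, a difference between the contrasts of -2.38, SE 0.02, adjusted p = 6.00e-33 on the log2 scale. The nuclear respiratory genes kept their direction under that label, summing to 2784 ± 14.4 CPM in the B16-F10 T fraction and 8249 ± 23.1 CPM in the B16-F10 melanoma fraction, and the difference between the contrasts was higher for 31 of 33 and lower for 1 (median 0.56).

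Lipid synthesis separated more than lipid burning. Of 12 fatty acid synthesis genes 10 were lower and 1 higher (median -1.17). Fasn, fatty acid synthase, had 103, 102 and 106 CPM in the T fraction, against 515, 504 and 504 CPM in the melanoma fraction (log2 fold change -2.16, SE 0.02, adjusted p = 8.10e-30). Scd2, a desaturase, had 122, 121 and 121 CPM in the T fraction, against 797, 799 and 800.5 CPM in the melanoma fraction (log2 fold change -2.59, SE 0.016, adjusted p = 5.28e-33). The melanoma mean was 4.89 times the T mean for Fasn and 6.596 times for Scd2. Of 17 fatty acid oxidation genes 16 passed the filter, 7 higher and 7 lower (median -0.02), none beyond 2-fold by the test. Cd36, a fatty acid receptor of endothelial cells and macrophages, was the highest (log2 fold change 0.95), and Cpt2, of the carnitine shuttle, the lowest (log2 fold change -1.14). Of 22 cholesterol synthesis genes 18 were lower and 2 higher (median -0.58). Dhcr7, the last reductase of the pathway, had 12.6, 15.4 and 14.1 CPM in the T fraction, against 67.4, 64.5 and 63.97 CPM in the melanoma fraction (log2 fold change -2.11, SE 0.052, adjusted p = 4.25e-21). Sqle, squalene epoxidase, differed by less (log2 fold change -0.90), and Idi1, an isomerase, was higher (log2 fold change 0.42).

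Of 22 genes of serine, one-carbon and amino acid supply 17 were lower and 4 higher (median -1.004). Phgdh, the first enzyme of serine synthesis, had 40.8, 40.8 and 38.7 CPM in the T fraction, against 147, 147 and 143 CPM in the melanoma fraction (log2 fold change -1.74, SE 0.03, adjusted p = 3.22e-24). The aspartate aminotransferase Got1 had 46.2, 44.9 and 47.8 CPM in the T fraction, against 221, 225 and 225 CPM in the melanoma fraction (log2 fold change -2.14, SE 0.025, adjusted p = 1.45e-27). Slc38a2, an amino acid carrier, was the member of highest CPM and among the higher, with 1117 ± 6.58 CPM in the T fraction and 878 ± 3.54 CPM in the melanoma fraction (log2 fold change 0.47). Arg1, the arginase of macrophages, was lower, with 12.2 ± 0.461 CPM in the T fraction and 42.7 ± 0.588 CPM in the melanoma fraction (log2 fold change -1.68), and stood at 0.398 CPM in the B16-F10 melanoma fraction.

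Proliferation genes differed modestly. Of 22, 20 were lower in the T fraction and 2 higher (median -0.62), 4 beyond 2-fold. Mcm2, a subunit of the replication helicase, had 47.8, 49.9 and 49.6 CPM in the T fraction, against 196, 201 and 187 CPM in the melanoma fraction (log2 fold change -1.86, SE 0.03, adjusted p = 6.77e-25). Mki67, the Ki-67 antigen, had 100.4, 94.98 and 102 CPM in the T fraction, against 130.5, 129 and 131 CPM in the melanoma fraction (log2 fold change -0.26, SE 0.026, adjusted p = 2.09e-09). Immediate early and heat shock genes, which dissociation is known to induce, were 16 higher and 2 lower of 18, none beyond 2-fold (median 0.42). Ier3, an immediate early gene, had 655 ± 5.49 CPM in the T fraction and 378 ± 6.38 CPM in the melanoma fraction (log2 fold change 0.92), Fos 364 ± 6.31 CPM in the T fraction and 411 ± 1.13 CPM in the melanoma fraction (log2 fold change -0.05, a call lost with DESeq2) and Nr4a1, induced by receptor signalling, 467 ± 4.39 CPM in the T fraction and 827 ± 1.67 CPM in the melanoma fraction (log2 fold change -0.70). Hspa8, a chaperone and the member of highest CPM, had 2211 ± 13.3 CPM in the T fraction and 1885 ± 8.49 CPM in the melanoma fraction. Of 20 ribosomal protein genes 11 were higher and 8 lower (median 0.14). The direction of their sum depended on scaling, at 11139 ± 50.3 CPM in the T fraction and 11783 ± 37.6 CPM in the melanoma fraction by library totals and 364 CPM higher in the T fraction with TMM-scaled library sizes.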

How the data were processed

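The authors deposited raw counts per Ensembl gene for 12 libraries of poly-A RNA. Per the submitters' processing notes, HISAT2 2.0.5, featureCounts 1.6.0 and build GRCm39 were used; their settings, strand included, are not given in the sources used here, and the kit named in the labels' protocols does not mark strand, so overlapping and antisense genes cannot be told apart. Levels here are CPM of library totals. In R 4.3.3, edgeR 4.0.16 (filterByExpr, TMM, glmQLFit and glmQLFTest, Benjamini-Hochberg, threshold 0.05) compared the 3 T and 3 melanoma libraries, and glmTreat tested a 2-fold difference. The contrast was set against that of the B16-F10 label in a fit of all 12 libraries. The fits were tested on simulated data. SEs derive from the F statistic. Where a group had 3 counts or fewer, a bound against 3 counts or a 95% Clopper-Pearson interval replaces the fitted fold. Sums and ratios were compared with exact permutation tests.

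Of 632 list symbols 628 were found. Members and lists were chosen with earlier results of these data known. Named were preset anchor genes, the 10 highest and 10 lowest fold changes among called genes of at least 20 CPM in the higher fraction with no overlap, the extreme and the most abundant members of each list, and other members where a family is described. Alternatives were 3 other normalizations, DESeq2 1.42.0, limma-voom 3.58.1, 2 other filters, all 12 libraries, the 2-fold test, a replicate block and each library left out. Every count column was used. A few genes that the naming rule covers are not reported here.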

Additional observations from a re-analysis of the deposited data

Results flagged for a closer look

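The T minus melanoma contrast was compared between the OVA and the B16-F10 label by the test of the difference over all 12 libraries. Of 18562 genes tested, 5147 (27.7%) differed in the higher direction and 7670 (41.3%) in the lower one, or 69.0% in all. With so large a share over all genes, a difference is no special trait of the genes below. Of the 48 anchor genes and genes named as the 10 highest or 10 lowest, 38 differed, and 31 of these had more than 3 counts in every group. For 10 of the 31 the mean CPM ran in opposite directions under the 2 labels. Values are log2 differences, OVA minus B16-F10.

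Among interferon genes Irf1 differed by 3.38, Cd274 by 2.81, Gbp2 by 4.86 and Igtp by 4.96, and each was higher in the T fraction under the OVA label and lower in it under the B16-F10 label. Cxcl9 differed by 1.00 and Cxcl10 by 3.21 with the same direction under both. These genes do not stand for their lists. The difference was higher for 5 and lower for 6 of 12 interferon gamma signalling genes (median -0.32). For interferon-induced chemokines, enzymes and ligands it was higher for 5 and lower for 6 of 12 (median -0.46). Of 29 type I interferon response genes it was higher for 15 and lower for 11 (median 0.22). Zbtb32 differed by 2.62, Serpinb9b by 2.09 and Gzmb by -4.18. Gzmb had 1624 CPM in the OVA T fraction and 130 CPM in the B16-F10 T fraction. Its level was 21.1 CPM in the OVA melanoma fraction and 0.0972 CPM, or 6 counts, in the B16-F10 melanoma fraction.

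Among genes of other cells Ptprc differed by -8.95, Lyz2 by -9.06, C1qa by -11.02, Csf1r by -8.08, Cd74 by -3.53, H2-K1 by -4.51, Pecam1 by -8.59 and Col1a1 by -5.01. Of these Lyz2, C1qa, Csf1r and Cd74 ran in opposite directions under the labels, as did Fos, at -1.85, and mt-Co1, at -2.38. The B16-F10 melanoma fraction held few counts of most of them.

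Pigment and melanoma genes differed by 0.74 for Pmel, -0.79 for Tyrp1, -0.61 for Ppargc1a, -1.54 for Rab38, -2.38 for Gsdmc, -1.90 for Brs3, -1.66 for Foxr2, -1.64 for Dcdc2a and -1.07 for Fkbp6. Metabolic genes differed by 1.49 for Gapdh, 0.47 for Ldha and 2.08 for Sqle.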

How the results depend on the processing

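Across the alternatives for the OVA comparison other than the 2-fold test, 5875 to 7024 genes were higher and 6690 to 8368 lower, and the 2-fold test left 1981 and 2268. Leaving out each library in turn gave 6623 to 6822 higher and 7245 to 7440 lower, and for the difference between labels 5024 to 5215 and 7466 to 7721. Replicate numbers correlated at 0.164, -0.0012 and 0.138 between the fractions over 11383 genes, and unlike numbers at -0.158 to 0.0235. Deviations from a mean of 3 libraries depend on each other, so these values do not settle whether the libraries are paired. With a replicate block 6781 genes were higher and 7299 lower, and 5106 and 7617 for the difference between labels. Scaling by library totals alone shifted the median gene to -0.15 and made 41.3% of called genes higher, against 48.1% with TMM. The median of the B cell list, 0.08, turned to -0.044 with library totals and -0.28 without a filter, and ran from -0.15 (without T fraction replicate 1) to 0.19 when 1 library was left out. That of the NK cell list, -2.56 over 3 genes, ran from -0.30 to 0.12 (without T fraction replicate 1) in the same way. The filter was run anew for each library left out and passed 18445 to 18616 genes, against 17947 in the main fit. These medians therefore need not cover the same list members, and what that added was not tested. The ribosomal protein sum turned to 364 CPM higher in the T fraction with TMM-scaled sizes. No named gene changed direction under these alternatives. Fos lost its call with DESeq2, and Fos, Cd74, Ldha, mt-Co1, Sqle and Mki67 in the 2-fold test. Where a count of 0 to 3 is given, depth limits the fold to a bound or an interval.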
